A study of Mus musculus with 15 samples.

Results

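The genes described here serve antigen presentation by major histocompatibility complex (MHC) class I in the mouse. They are the heavy chain genes H2-K1 and H2-D1, the light chain gene B2m, the peptide transporter genes Tap1 and Tap2, the peptide-loading gene Tapbp, the immunoproteasome subunit genes Psmb8, Psmb9 and Psmb10, and Nlrc5, a regulator of class I transcription. They were chosen by symbol, ignoring case, from the 21025 gene entries of the count tables. Of the 10 symbols 9 were found. H2-D1 had no entry under that symbol. An entry named H2-L carries the transcript accession that RefSeq gives to H2-D1, so its values are given beside the 9 found genes and are not counted among them.

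Polyadenylated RNA was sequenced from untreated lymph node cells that had been enriched for CD8, a surface protein of cytotoxic T cells, by magnetic positive selection. The mice were 15 weeks old. Wild type (WT) samples were C57BL/6N, and each pooled the lymph nodes of 2 to 3 mice. The other 2 genotypes were cS5Alo and cS5Ahi. As known of the study, though its labels do not say so, these lines carry an active form of the transcription factor STAT5A as a transgene driven by the Vav1 promoter, which is active throughout blood cells, at a lower and a higher level. Every genotype had 5 libraries, numbered 1 to 5. Nothing in the labels says whether the cS5Alo and cS5Ahi libraries came from separate animals, so the p-values here speak of the spread among libraries. The cS5Ahi libraries shared 1 flow cell and those of WT and cS5Alo another, so flow cell and genotype cannot be told apart in comparisons with cS5Ahi. By title and genotype cS5Ahi 1 is a cS5Ahi library, but its description says cS5Alo.

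Class I molecules show peptides from inside the cell to CD8 T cells. The proteasome cuts cytosolic proteins into peptides, and in cells of the immune system its constitutive catalytic subunits are partly replaced by the immunoproteasome subunits. The TAP1 and TAP2 proteins together pump peptides into the endoplasmic reticulum, where tapasin, the product of Tapbp, holds empty class I molecules until a peptide binds. Interferons and NLRC5 are known to raise the transcription of many of these genes. T lymphocytes display class I molecules themselves and are also known for strong Nlrc5 expression.

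Libraries held 12177642 to 33948416 reads in genes, and the class I genes took 1.16 to 1.67% of them. Reads outside genes made up 36.8 to 40.8% in WT 3, WT 4 and cS5Ahi 4 and 23.04 to 30.2% in the other libraries. The transgenic gene Stat5a ranged from 71.4 to 95.7 CPM (the share of a library that a gene takes, scaled with TMM factors) in WT, from 100.3 to 117 CPM in cS5Alo libraries and from 404 to 635 CPM in cS5Ahi, without overlap. Such non-overlap was found for 1.71% of all tested genes in cS5Alo against WT and 10.5% in cS5Ahi against WT. The Stat5a difference of cS5Alo from WT was not called (log2 fold change 0.38 ± 0.12 SE, edgeR adjusted p = 0.292). The 6 CD8 T cell markers summed to 6060 to 7600 CPM in WT libraries, 6590 to 7140 CPM in cS5Alo libraries and 6610 to 8090 CPM in cS5Ahi. Markers of other cells were present at lower sums. The 10 B cell markers gave 92.5 to 318 CPM in WT libraries and 151 to 247 CPM in cS5Alo libraries. In cS5Ahi libraries they gave 79.5 to 152 CPM. The 6 salivary gland markers reached far higher sums in some libraries and varied widely. Across WT libraries they summed to between 414 and 3880 CPM. Their sums spanned 28.4 to 3300 CPM among cS5Alo libraries. For cS5Ahi libraries the span was 33.2 to 558 CPM. In cS5Ahi against WT, where 7.25% of all genes were called lower, 1 of 4 CD4 T cell markers fell. So did 2 of 4 stromal and endothelial and 3 of 4 tested salivary gland markers. None of 7 macrophage markers was called, and the salivary gland marker Smr2 was at 0 in every library. In bulk RNA, fewer cells of a type and less RNA per cell cannot be told apart.

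The sequences upstream of the class I genes are shown here because class I promoters are known to be read by shared factors and because the study concerns a STAT factor, whose binding motif may be looked for in them. They are the bases before the RefSeq start of each gene in build GRCm38.p6, printed 5′ to 3′ along the strand named. Capitals mark matches, on either strand, to 6 motifs: TTCNNNGAA (STAT), GAAANNGAA and AAGTGAAAC (interferon regulatory factors), GGGATTCCC (the class I site for NF-kB), TGACG (the core read by CREB and related factors) and CCAAT (read by NF-Y). The motifs and the promoters printed were chosen with the expression values in view.
H2-K1, chr17:34000348-34000597, minus strand: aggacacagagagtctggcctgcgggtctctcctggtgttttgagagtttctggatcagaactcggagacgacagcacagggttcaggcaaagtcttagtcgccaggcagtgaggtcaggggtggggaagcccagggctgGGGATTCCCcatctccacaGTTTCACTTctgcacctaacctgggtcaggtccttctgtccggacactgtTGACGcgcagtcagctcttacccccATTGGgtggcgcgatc
H2-D1, chr17:35262844-35263093, plus strand: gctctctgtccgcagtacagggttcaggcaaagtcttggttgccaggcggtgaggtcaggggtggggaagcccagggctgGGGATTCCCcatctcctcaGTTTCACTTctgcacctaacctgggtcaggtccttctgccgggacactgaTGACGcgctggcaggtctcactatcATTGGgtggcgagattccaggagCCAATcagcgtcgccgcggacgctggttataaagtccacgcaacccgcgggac
B2m, chr2:122147437-122147686, plus strand: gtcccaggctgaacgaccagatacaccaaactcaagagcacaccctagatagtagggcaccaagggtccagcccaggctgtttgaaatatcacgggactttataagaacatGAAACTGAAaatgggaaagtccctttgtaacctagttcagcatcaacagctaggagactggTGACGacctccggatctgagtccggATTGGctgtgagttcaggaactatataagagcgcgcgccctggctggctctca
Tap1 and Psmb9, the stretch between their divergent starts, chr17:34187331-34187555, plus strand: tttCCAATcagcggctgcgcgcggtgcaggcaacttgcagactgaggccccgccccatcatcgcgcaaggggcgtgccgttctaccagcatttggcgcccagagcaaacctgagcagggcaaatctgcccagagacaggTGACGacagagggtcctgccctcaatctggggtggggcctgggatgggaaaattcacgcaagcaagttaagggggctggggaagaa
Psmb8, chr17:34197945-34198194, plus strand: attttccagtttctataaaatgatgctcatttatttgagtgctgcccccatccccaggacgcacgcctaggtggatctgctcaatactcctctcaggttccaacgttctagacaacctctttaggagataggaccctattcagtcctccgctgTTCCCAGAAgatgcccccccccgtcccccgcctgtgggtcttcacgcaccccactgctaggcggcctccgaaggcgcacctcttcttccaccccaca

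H2-K1 and H2-D1 each held AAGTGAAAC, GGGATTCCC and TGACG, in that 250-base window. Over all 27025 mouse promoters of that length, AAGTGAAAC was found in 0.352%, GGGATTCCC in 0.311%, TGACG in 17.9% and CCAAT in 34.5%. AAGTGAAAC and GGGATTCCC were searched as the class I forms of their sites, so their matches in class I promoters are not an independent finding. B2m held GAAANNGAA, which 7.16% of promoters hold, with TGACG and CCAAT. Tap1 and Psmb9 start from opposite strands of a shared stretch of 225 bases, which held TGACG and CCAAT. Among the class I genes with a promoter in the table, Psmb8 alone held TTCNNNGAA, which 7.18% of promoters hold. Psmb8 held neither TGACG nor CCAAT. Tapbp and Psmb10, whose sequences are not printed, held CCAAT alone and none of the motifs, respectively. Tap2 and Nlrc5 had no entry.

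Levels were compared between genes per length of transcript. B2m was the highest, at 11200 ± 1200 CPM per kb in WT (SD, n = 5), followed by H2-K1 at 923 ± 99.6 CPM per kb. Psmb8 stood at 224 ± 25.5 CPM per kb and the H2-L entry at 180 ± 47.1 CPM per kb, within their spread of each other. Tapbp, at 95 ± 18 CPM per kb, and Psmb10, at 68.7 ± 25.4 CPM per kb, also lay within their spread, as did Psmb10, Psmb9 (55.1 ± 18.9) and Tap1 (54.0 ± 11.4 CPM per kb). Nlrc5 (29.2 ± 6.89) and Tap2 (17.4 ± 2.23 CPM per kb) were the lowest. The order in cS5Ahi was the same, and in cS5Alo Psmb9 (65.8 ± 18.1 CPM per kb) stood above Psmb10 (61.6 ± 16 CPM per kb), within their spread.

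**Figure D1:**
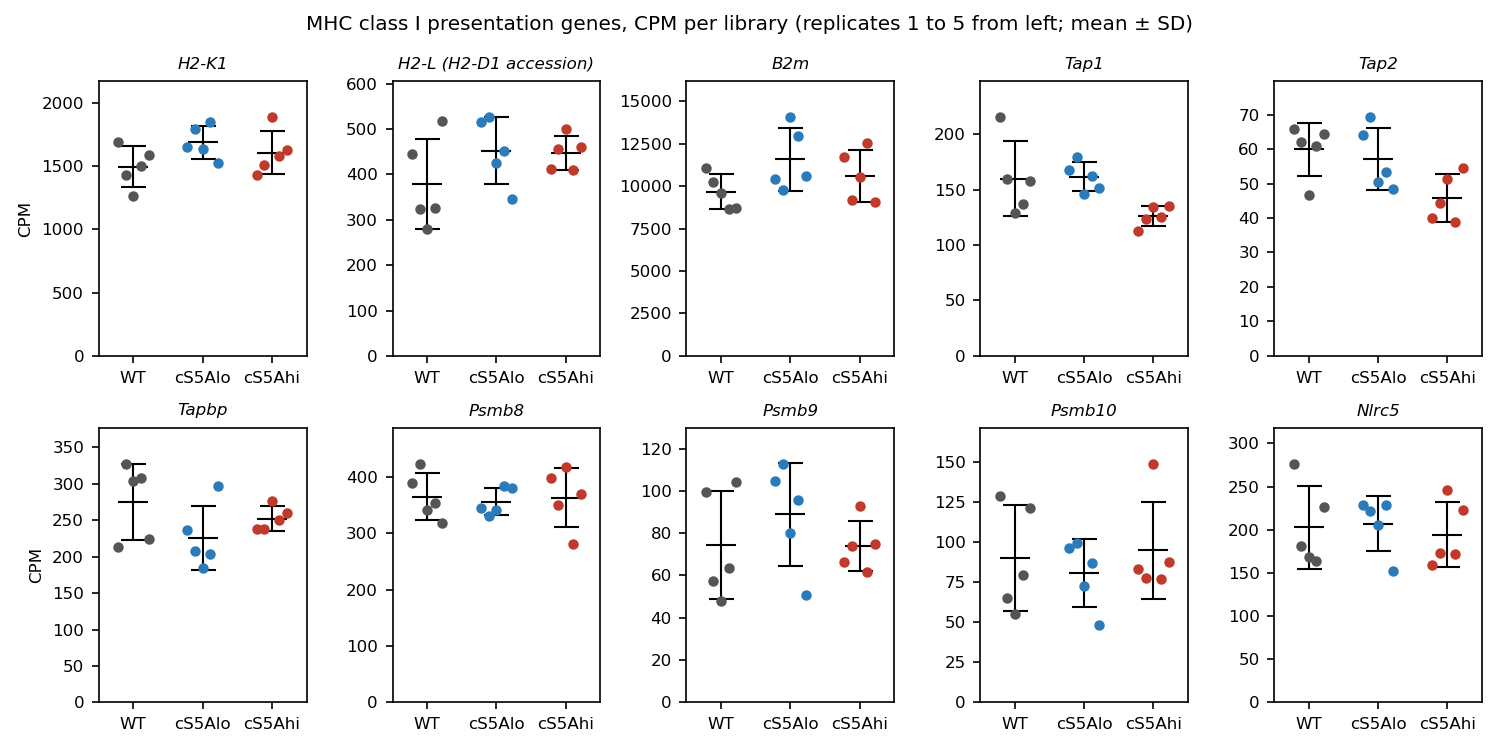
CPM (linear axis from 0) of the 9 class I presentation genes and the H2-L entry in each of 15 libraries, by genotype; points are libraries 1 to 5 from left to right, and bars are the mean ± SD. Tap1 in cS5Ahi lies between 112 and 135 CPM, below all cS5Alo libraries, and every other panel shows overlapping genotypes.

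The comparison of cS5Ahi with WT asks whether class I presentation genes differ in cells with the high Stat5a level. None of the 9 genes passed the test over all genes (edgeR quasi-likelihood, Benjamini-Hochberg adjusted p under 0.05), against a background of 14.1% of 11979 genes called. At an unadjusted p under 0.05 edgeR counted 2 of the 9, Tap1 and Tap2, where 26.6% of all genes were counted. DESeq2 called the same 2, where it called 17.8% of all genes, so both counts lay near the share of all genes. The median log2 fold change of the 9 genes was -0.011, and that of all tested genes 0.00029. In cS5Alo against WT none of the 9 was called either, with 0% of 11979 genes called by edgeR (11.3% of genes and 0 of the 9 at an unadjusted p under 0.05, and 0.743% of genes and 0 of the 9 called by DESeq2). In cS5Ahi against cS5Alo 0 of the 9 were called against a background of 8.64%, with 2 at an unadjusted p under 0.05, again Tap1 and Tap2 (21.6% of all genes), and 1 called by DESeq2 (12.2% of all genes). These counts too lay near the shares of all genes. The comparisons share the WT, cS5Alo or cS5Ahi libraries and are not independent of each other.

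Tap1 and Tap2, the 2 chains of the peptide transporter, had their lowest mean levels in cS5Ahi. Tap1 measured 215, 159.5, 128, 137 and 158 CPM in WT 1 to 5, 168, 179, 146, 162 and 151 CPM in cS5Alo 1 to 5 and 112, 124, 134, 125 and 135 CPM in cS5Ahi 1 to 5. The cS5Ahi libraries all lay below the cS5Alo libraries, WT 3 fell inside the cS5Ahi range, and WT 1 stood above every other library. Non-overlap of this kind was found for 10.8% of all tested genes in cS5Ahi against cS5Alo. None of the 9 genes showed it in cS5Ahi against WT (10.5% of all genes) or cS5Alo against WT (1.71%). Tap1 was 1.27-fold lower in cS5Ahi than in WT (log2 fold change -0.34 ± 0.12 SE, 95% interval -0.60 to -0.086, edgeR adjusted p = 0.07) and 1.28-fold lower than in cS5Alo (-0.36 ± 0.12, -0.61 to -0.10, edgeR adjusted p = 0.0793). Against WT, cS5Alo gave 0.016 ± 0.12 (-0.24 to 0.27).

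Tap2 measured 65.9, 61.9, 46.7, 60.8 and 64.2 CPM in WT libraries, 64.0, 69.2, 50.3, 53.5 and 48.4 CPM in cS5Alo libraries and 40.1, 44.4, 51.4, 38.8 and 54.5 CPM in cS5Ahi. Its lowest WT library, WT 3, stood below cS5Ahi 3 and 5, so the ranges overlapped in all comparisons. Tap2 was 1.31-fold lower in cS5Ahi than in WT (log2 fold change -0.39 ± 0.13, 95% interval -0.66 to -0.11, edgeR adjusted p = 0.0575) and 0.803 times its level in cS5Alo (-0.32 ± 0.13, -0.59 to -0.041, edgeR adjusted p = 0.161). Both transporter genes sat near the threshold, and several other settings moved them across it. Without WT 3, the library with the lowest Tap1 and Tap2 of its group, the edgeR adjusted p against WT was 0.0276 for Tap1 (log2 fold change -0.42) and 0.0202 for Tap2 (-0.48). Without WT 1 the Tap1 log2 fold change against WT was -0.21 (edgeR adjusted p = 0.201), and within the WT libraries that share a lane with cS5Alo, WT 3 to 5, it was -0.16 (edgeR adjusted p = 0.413). Over 29 other settings the edgeR, DESeq2 or voom adjusted p of Tap1 against WT ranged from 0.0121 to 1 and that of Tap2 from 0.0186 to 1, with negative fold changes throughout.

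**Figure D2:**
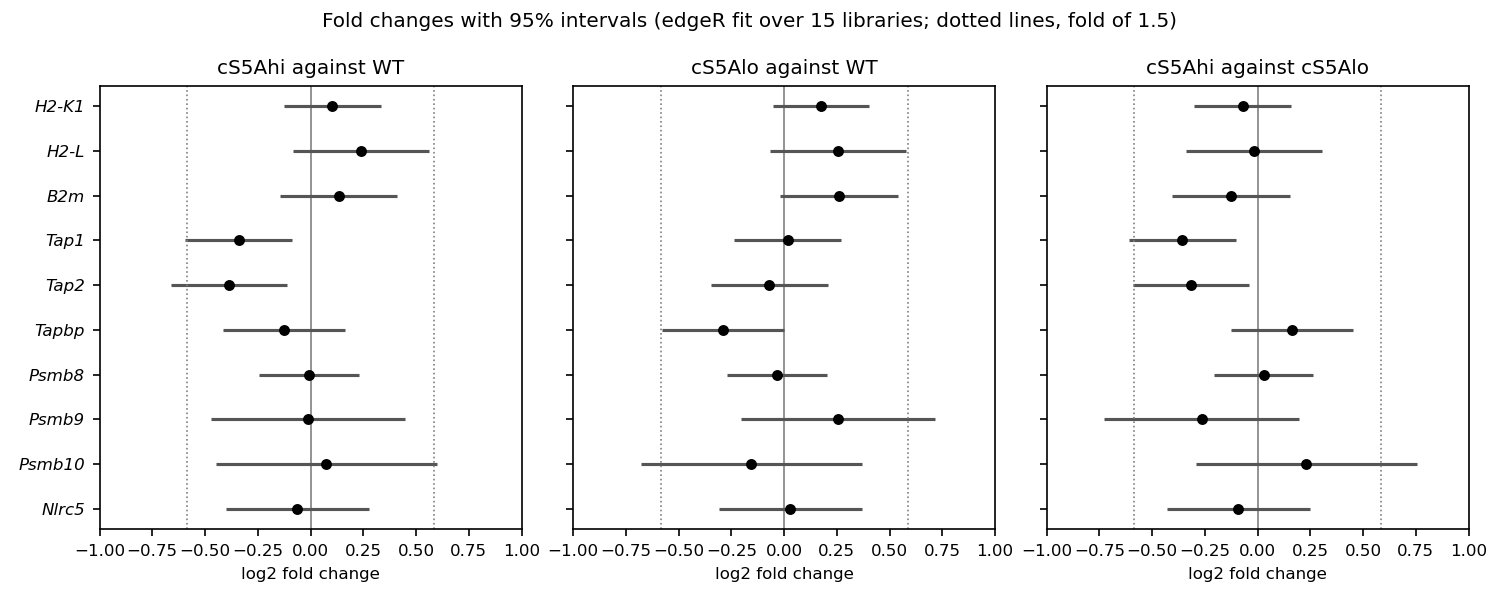
Log2 fold change (points) with 95% intervals (lines) for the 9 class I presentation genes and the H2-L entry in each comparison of the edgeR fit over 15 libraries; dotted lines mark a fold of 1.5 in either direction. Intervals that leave out 0 are those of Tap1 and Tap2 in both comparisons with cS5Ahi.

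The heavy chain H2-K1, which presents peptides directly, measured 1689, 1426, 1266, 1503 and 1590 CPM in WT libraries, 1647, 1793, 1635, 1846 and 1523 CPM in cS5Alo libraries and 1429, 1509, 1885, 1583 and 1627 CPM in cS5Ahi. The genotypes overlapped, with WT 3 lowest and cS5Ahi 3 highest. The log2 fold change was 0.10 ± 0.11 for cS5Ahi against WT (95% interval -0.12 to 0.33) and 0.18 ± 0.11 for cS5Alo against WT (-0.052 to 0.40). H2-K1 shares 8.79% of its 50-base stretches with transcripts of other genes, most of them with H2-D1, so part of its reads may have gone uncounted or to another gene. The H2-L entry, for which that share is 14.3%, ranged from 280 to 518 CPM in WT libraries, 346 to 526 CPM in cS5Alo libraries and 409 to 499 CPM in cS5Ahi. Its values were within this spread of each other (log2 fold change 0.24 ± 0.15 for cS5Ahi against WT and 0.26 ± 0.15 for cS5Alo against WT).

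B2m, whose product pairs with every class I heavy chain, measured 11080, 10270, 9608, 8673 and 8710 CPM in WT libraries, 10450, 9789, 14060, 12960 and 10630 CPM in cS5Alo libraries and 11730, 9160, 10540, 12530 and 9052 CPM in cS5Ahi. The cS5Alo 3 and 4 libraries stood above all others, and the genotypes overlapped. The log2 fold change was 0.13 ± 0.13 for cS5Ahi against WT (95% interval -0.14 to 0.41, edgeR adjusted p = 0.584) and 0.26 ± 0.13 for cS5Alo against WT (-0.018 to 0.54, edgeR adjusted p = 0.469). Tapbp measured 214, 327, 303, 308 and 225 CPM in WT libraries, 236, 207.5, 184, 203 and 296.5 CPM in cS5Alo libraries and 238, 237.5, 277, 249.6 and 259.8 CPM in cS5Ahi. WT 2, 3 and 4 and cS5Alo 5 were the high libraries, so the genotypes overlapped, although cS5Alo 2, 3 and 4 lay below every WT library. Its largest difference was in cS5Alo against WT, a log2 fold change of -0.29 ± 0.14 (-0.58 to 0.0017, edgeR adjusted p = 0.443).

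The immunoproteasome subunits Psmb8, Psmb9 and Psmb10 carry the proteolytic sites that replace those of Psmb5, Psmb6 and Psmb7. Psmb8 measured 389, 423, 341.5, 353 and 317 CPM in WT libraries, 345, 330.3, 341, 383 and 379.8 CPM in cS5Alo libraries and 397, 349, 417, 281 and 369.7 CPM in cS5Ahi. The means lay between 355.7 and 364.6 CPM, and the 95% interval for cS5Ahi against WT ran from -0.24 to 0.23 on the log2 scale. Psmb9 varied more, with 99.6, 57.6, 47.9, 63.4 and 104 CPM in WT libraries, 105, 113, 80.3, 95.9 and 50.9 CPM in cS5Alo libraries and 66.5, 73.8, 93.0, 61.8 and 75.0 CPM in cS5Ahi. Psmb10 measured 129, 65.5, 55.1, 79.4 and 122 CPM in WT libraries, 96.6, 99.6, 72.7, 86.8 and 48.2 CPM in cS5Alo libraries and 83.1, 77.8, 149, 77.1 and 87.5 CPM in cS5Ahi. In both genes WT 2, 3 and 4 and cS5Alo 5 were the low libraries of their genotypes and WT 1 and 5 were high, so the spread within WT (34.3 and 36.9% of the mean) exceeded the differences between genotype means. The log2 fold change of cS5Ahi against WT was -0.011 ± 0.22 for Psmb9 (95% interval -0.47 to 0.45) and 0.075 ± 0.25 for Psmb10 (-0.45 to 0.60).

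These 4 libraries also had the lowest shares of reads from short transcripts among WT and cS5Alo. Transcripts under 1 kb took 19.2, 17.3 and 20.3% of the reads in WT 2, 3 and 4 and 18.7% in cS5Alo 5, and 21.4 to 24.7% in the other WT and cS5Alo libraries. The order did not hold in every library: cS5Alo 3, with Psmb10 at 72.7 CPM, had a share of 23.5%, and cS5Ahi 4, with Psmb9 at 61.8 CPM, one of 21.8%, whereas cS5Ahi 2 had 19.4% with Psmb9 at 73.8 CPM. The transcripts of Psmb9 and Psmb10, at 1352 and 1311 bases, are themselves longer than 1 kb. The part of this share in the result was not tested. In WT the constitutive subunits Psmb5 and Psmb6 were low in the same libraries, with Psmb5 at 22.6, 20.7 and 23.03 CPM in WT 2 to 4 and 44.3 and 39.9 CPM in WT 1 and 5, and Psmb6 at 24.4, 16.9 and 22.7 CPM against 47.9 and 44.3 CPM. Psmb7 ranged from 35.7 to 52.0 CPM in WT.

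Ratios of counts within a library, which need no scaling, set each immunoproteasome subunit against the constitutive subunit whose place it takes. Psmb9 stood at 2.05 to 2.76 reads per Psmb6 read in cS5Ahi, 2.28 to 3.15 in cS5Alo and 2.08 to 2.84 in WT. Psmb10 stood at 1.72 to 2.67 reads per Psmb7 read in cS5Ahi, 1.42 to 2.39 in cS5Alo and 1.31 to 2.48 in WT. Psmb8 stood at 10.6 to 13.4 reads per Psmb5 read in cS5Ahi, 9.49 to 25.1 in cS5Alo and 7.94 to 18.7 in WT, but Psmb5 shares 57.1% of its 50-base stretches with other genes' transcripts, so its count is uncertain. None of 9 two-sided exact permutation tests of these log2 ratios passed after Benjamini-Hochberg adjustment, where 5 against 5 libraries can reach p = 0.00794. The lowest was Psmb9 to Psmb6 in cS5Ahi against cS5Alo, with mean log2 ratios of 1.20 ± 0.19 and 1.51 ± 0.19 (SD, n = 5 each; exact permutation p = 0.0476, adjusted p = 0.429).

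**Figure D3:**
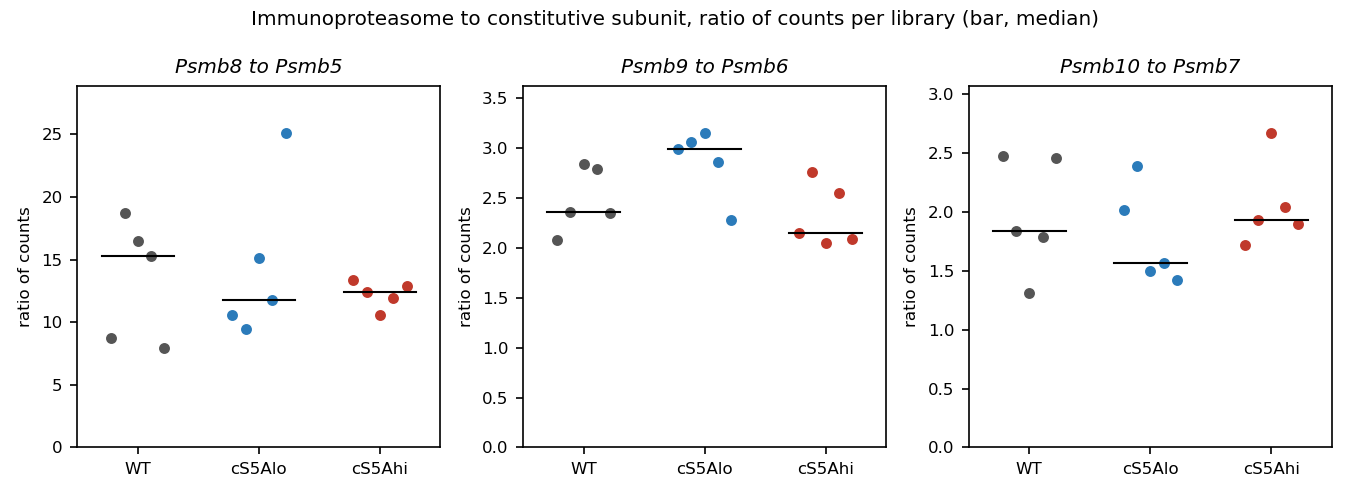
Ratio of counts of each immunoproteasome subunit gene to its constitutive counterpart in every library (linear axis from 0), by genotype, with the median as a bar and libraries 1 to 5 from left to right. The genotypes overlap in all 3 panels; cS5Alo 5 holds the highest Psmb8 to Psmb5 ratio, at 25.1.

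Nlrc5, whose product assembles at class I promoters, measured 276, 181, 168, 164 and 226 CPM in WT libraries, 229, 222, 205, 228 and 152 CPM in cS5Alo libraries and 159.7, 173, 245.5, 172 and 222 CPM in cS5Ahi. WT 2, 3 and 4 and cS5Alo 5 were again the low libraries of their genotypes, and the genotypes overlapped. Nlrc5 has a transcript of 6945 bases. Its log2 fold change was -0.062 ± 0.16 for cS5Ahi against WT (95% interval -0.40 to 0.28) and 0.030 ± 0.16 for cS5Alo against WT (-0.31 to 0.37). The precision of the fit differed between genes: in cS5Ahi against WT the 95% interval of 6 of the 9 genes lay inside a fold of 1.5 in either direction, and those of Tap1, Tap2 and Psmb10 reached past it. In cS5Alo against WT 7 of the 9 intervals lay inside, and in cS5Ahi against cS5Alo 5 of the 9.

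The genes whose profiles over the 15 libraries were nearest to a class I gene were sought among 7930 genes with a mean of at least 10 CPM, by the root mean square difference of centred log2 CPM. They are a description of these libraries, named after the values had been seen. Nearest to Tap1 were Vps16 (0.0944), Adcy7 (0.104) and Hip1r (0.109), and nearest to Tap2 Arhgap45 (0.117), Ip6k1 (0.123) and E4f1 (0.128). Psmb9 was nearest to Psenen (0.0998), Atp6v1f (0.105) and Ndufb8 (0.111), and Psmb10 to Sit1 (0.128), Psmb5 (0.136) and Fau (0.151). Tapbp was nearest to the actin gene Actb (0.0912). The 9 class I genes themselves were left out of the search.

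Around these genes, the rest of the class I machinery was mostly not called in cS5Ahi against WT, where 6.88% of all genes were higher and 7.25% lower. Each of the 2 genes called was a single gene of a short list. Of 10 peptide-loading and folding genes 1 rose: Erap1, which trims peptides in the endoplasmic reticulum, from 279 ± 39.9 to 357 ± 33.0 CPM (log2 fold change 0.35 ± 0.11, edgeR adjusted p = 0.0406), a call that held in 8 of 29 other settings. Of 7 cytosolic peptidases 1 rose, Lap3, from 11.8 ± 2.67 to 16.9 ± 1.91 CPM (0.52 ± 0.15, edgeR adjusted p = 0.0242; called in 20 of 29 other settings). None of 11 other subunits of the proteasome core, 18 of its regulatory particle or 10 activators and assembly factors was called, with list medians of 0.12, 0.15 and 0.18. The activator gene Psme1 stood at 740.0 ± 96.2 CPM in WT libraries, 819 ± 84.9 CPM in cS5Alo libraries and 844 ± 52.2 CPM in cS5Ahi. None of 13 regulators of class I promoters was called (median -0.12). Under other settings 2 were lower with library size alone, with upper quartile factors or without WT 5, and 1 with DESeq2 or without cS5Ahi 5. Over all genes 868 were lower in the main fit, and 1177, 1045, 945, 1153 and 673 under these settings, in that order.

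Single members among the other class I and class I-like heavy chains changed. Of 19 tested, 2 rose and 2 fell in cS5Ahi against WT (6.88% of all genes higher and 7.25% lower), and the same numbers in cS5Ahi against cS5Alo (4.87% and 3.77%). Without WT 5 the counts against WT were 3 and 4, where 960 of all genes were higher and 945 lower. With voom those against cS5Alo were 2 and 6, where 1327 of all genes were higher and 1219 lower. The main fit called 824 genes higher and 868 lower against WT, and 583 and 452 against cS5Alo. H2-Q10, a class I heavy chain best known as a secreted protein of liver, rose from 2.87 ± 0.714 CPM in WT and 4.68 ± 1.03 CPM in cS5Alo to 16.9 ± 5.18 CPM (log2 fold change 2.57 ± 0.24 against WT, edgeR adjusted p = 5.75e-07). Fcgrt, which encodes the neonatal Fc receptor, a class I-like chain that pairs with B2m, rose from 20.2 ± 8.18 and 24.7 ± 3.89 to 83.8 ± 22.7 CPM (2.05 ± 0.23, edgeR adjusted p = 6.89e-06). H2-M2 fell from 13.4 ± 7.02 and 9.40 ± 3.96 to 1.72 ± 0.991 CPM (-2.96 ± 0.54, edgeR adjusted p = 0.000959), but was not called with the B cell marker level as a covariate (-1.04, edgeR adjusted p = 0.528). That level (mean log2 CPM) was 1.4 to 3.1 in cS5Ahi, 3.2 to 4.1 in cS5Alo and 2.6 to 4.7 in WT. It differed between genotypes, so a call lost under it cannot be assigned to B cell content or to genotype. Cd1d1, which presents lipids, fell from 14.8 ± 2.12 and 17.5 ± 2.39 to 8.67 ± 1.08 CPM (-0.77 ± 0.14, edgeR adjusted p = 0.000986). The abundant H2-Q4 (named H2-Gs10 in the tables) and H2-Q7 were not called in any comparison. Near-identical genes such as these may lose reads to each other, so their values are uncertain.

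Genes of interferon signalling moved both ways in cS5Ahi against WT. Of 14 tested, 5 rose and 3 fell (6.88% and 7.25% of all genes). Ifngr2, a chain of the receptor for interferon gamma, fell from 49.2 ± 4.27 to 23.3 ± 3.88 CPM (log2 fold change -1.08 ± 0.13, edgeR adjusted p = 9.69e-06), whereas the other chain Ifngr1 rose from 146 ± 47.3 to 267 ± 25.3 CPM (0.86 ± 0.17, edgeR adjusted p = 0.00176). Ifnar2, of the type I interferon receptor, rose from 104 ± 11.1 to 152.0 ± 9.99 CPM (0.55 ± 0.092, edgeR adjusted p = 0.00033). Ifng itself rose from 0.604 ± 0.521 to 4.76 ± 1.51 CPM (2.89 ± 0.55, edgeR adjusted p = 0.00114). With the B cell marker level, which differed between genotypes, as a covariate 1 rose and 1 fell. Over all genes calls went from 824 higher and 868 lower to 307 and 159 under the covariate. The log2 fold change of Ifngr1 was then 0.81 (edgeR adjusted p = 0.11), close to that without the covariate, and that of Ifng 1.98 (edgeR adjusted p = 0.121).

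Interferon-stimulated genes outside the class I pathway fell in part while the class I genes were not called. Of 30 tested, 9 fell and 0 rose in cS5Ahi against WT (median log2 fold change -0.35; 7.25% of all genes lower), and 9 fell and 0 rose in cS5Ahi against cS5Alo (median -0.55; 3.77% lower). Oas2, an antiviral sensor enzyme, fell from 35.1 ± 7.72 to 6.07 ± 1.65 CPM (-2.53 ± 0.27, edgeR adjusted p = 3.58e-06), Usp18 from 45.3 ± 3.39 to 25.4 ± 3.73 CPM (-0.83 ± 0.13, edgeR adjusted p = 0.000217) and Mx2 from 3.46 ± 0.725 to 0.758 ± 0.414 CPM (-2.17 ± 0.39, edgeR adjusted p = 0.000744). Leaving out any 1 library left 8 to 11 of these genes lower against WT. The test against a fold of 1.5 left 4, where it called 337 of all genes lower against 868 in the main fit. Whether the 9 class I genes differ in response from these genes was not tested.

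**Figure D4:**
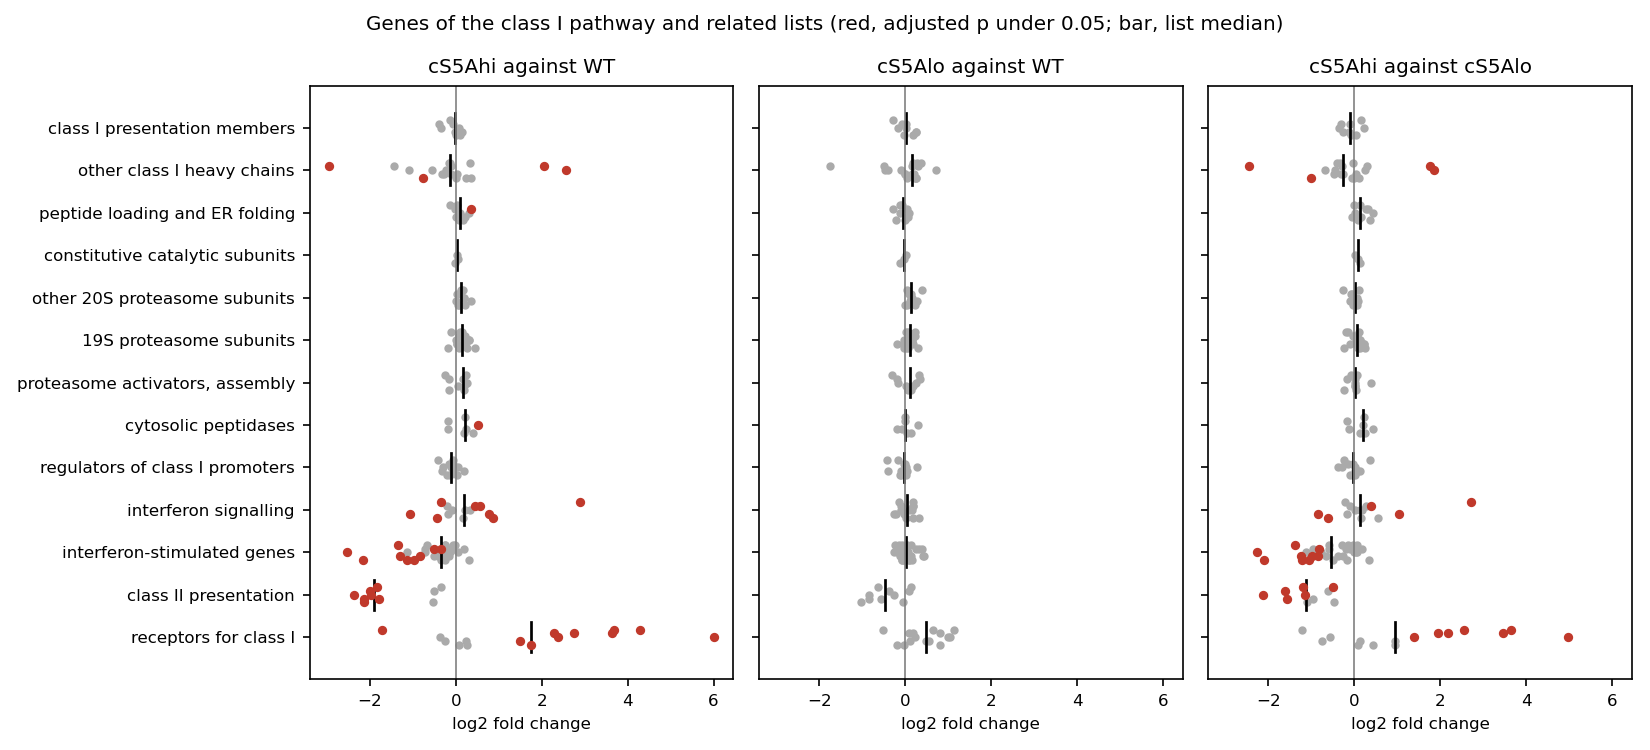
Log2 fold change (shared axis) of every tested gene of the class I genes and of 12 related lists in each comparison; points are genes, red where the edgeR adjusted p is under 0.05, and bars are list medians. The 9 class I genes lie between -0.39 and 0.26 in all panels, and no gene is called in cS5Alo against WT.

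Of 10 class II genes, which B cells and dendritic cells express, 7 fell in cS5Ahi against WT and 6 against cS5Alo, where 7.25% and 3.77% of all genes were lower. H2-DMb2 fell from 4.29 ± 1.12 to 0.815 ± 0.247 CPM (log2 fold change -2.38 ± 0.29, edgeR adjusted p = 1.5e-05), H2-Ab1 from 64.2 ± 28.2 to 16.1 ± 6.17 CPM (-1.99 ± 0.30, edgeR adjusted p = 0.000139) and H2-Eb1 from 85.1 ± 35.7 to 23.8 ± 10 CPM (-1.84 ± 0.30, edgeR adjusted p = 0.000401). In the same comparison 7 of 10 B cell markers and 4 of 7 dendritic cell markers fell, the latter with sums of 23 to 69.2 CPM in WT libraries, 17.4 to 29.9 CPM in cS5Alo libraries and 12.4 to 24.4 CPM in cS5Ahi. With the B cell marker level as a covariate 1 class II gene was still called lower, H2-DMb2. In cS5Ahi against WT that fit called 159 of all genes lower, against 868 without the covariate. Because the B cell marker level differed between genotypes, this fit cannot separate B cell content from genotype. The number lower against cS5Alo was 2 without cS5Ahi 1 and 3 or 4 without cS5Alo 1, 2, 4 or 5 or cS5Ahi 4 or 5, taken out singly. Over all genes 452 were lower in the main fit, 297 without cS5Ahi 1 and 319 to 484 without 1 of the others.

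Of 15 tested receptors for class I molecules, 9 rose and 1 fell in cS5Ahi against WT (6.88% of all genes higher and 7.25% lower). In cS5Ahi against cS5Alo 7 rose and 0 fell, where 4.87% of all genes were higher and 3.77% lower. Klrc1, which encodes the inhibitory receptor NKG2A for the class I molecule Qa-1, rose from 3.07 ± 1.00 to 38.5 ± 13.0 CPM (log2 fold change 3.64 ± 0.30, edgeR adjusted p = 1.08e-07). Among the Ly49 receptors, many but not all of which bind classical class I molecules, Klra4 rose from 4.04 ± 1.03 to 27.5 ± 18.6 CPM (2.75 ± 0.33, edgeR adjusted p = 1.44e-05) and the entry named Klra9, whose accessions include that of Klra8, from 1.60 ± 1.06 to 103 ± 56.6 CPM (6.01 ± 0.42, edgeR adjusted p = 3.43e-08). Members of this family are near-identical, so their counts are uncertain. In cS5Ahi against WT 3 of 4 natural killer cell markers rose, and the 1 other went the opposite way without being called (log2 fold change -1.85). The 4 markers summed to 41.6 to 71.4 CPM in WT libraries, 72.7 to 91.0 CPM in cS5Alo libraries and 182 to 232 CPM in cS5Ahi. Their part in the result was not tested. Of the 6 CD8 T cell markers none was called in cS5Ahi against WT, and 2 fell in cS5Ahi against cS5Alo, Cd3d (log2 fold change -0.37 ± 0.11, edgeR adjusted p = 0.0386) and Cd3g (-0.35 ± 0.10, edgeR adjusted p = 0.0395).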

How the data were processed

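Polyadenylated RNA of 15 mouse samples (5 each of WT, cS5Alo and cS5Ahi) was measured. The authors deposited whole-number read counts per gene, not normalised. TopHat 1.4.1, HTSeq 0.6.1p1 and cutadapt are named, with build mm9, per the submitters' processing notes. Whether counting used strand is not given in the sources used. The 5 summary entries of each file, of which reads outside genes were 23.04 to 40.8% and ambiguous reads 0.533 to 0.687% of all reads, stayed out of library sizes and tests. Samples were grouped by genotype and title. Over 30 pairs within groups, chi-square divided by its degrees of freedom was 9.98 to 112, so no pair agreed within sampling noise.

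Counts were filtered with filterByExpr by group (minimum count 10, minimum total 15), scaled with TMM factors and fitted in 1 robust edgeR 4.0.16 quasi-likelihood model over all 15 libraries (R 4.3.3), with each comparison as a contrast. Calls needed an adjusted p under 0.05 (Benjamini-Hochberg, over 11979 genes). Errors are standard errors from the fit for fold changes and SDs over libraries for CPM. Log2 ratios of subunit counts (each count + 0.5) were compared with two-sided exact permutation tests. Alternatives were other scalings and filters, DESeq2 1.42.0, voom with quality weights in limma 3.58.1, a test against a fold of 1.5, fits on 2 groups, a replicate block, the mean B cell marker level as a covariate, and fits without libraries; leaving out WT 3, WT 4 and cS5Ahi 4 together, and all alternatives for the gene lists, were added after the data had been seen. The fit was tested on simulated data with 50 genes changed at each fold. Over the 3 comparisons it called 0 to 4% of 1.25-fold, 26 to 32% of 1.5-fold and 64 to 82% of 2-fold changes. A gene not called may therefore still differ by such folds.

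The class I genes and the lists were chosen with earlier results of these data known. Named from a list were up to 3 called genes of smallest adjusted p, or, with none called, up to 2 of highest CPM. Some of these are left out, and Ifngr1, Cd3d and Cd3g were named after their values had been seen. Gene names were matched by accession to RefSeq (GRCm38.p6) for 20657 entries; transcript lengths and shared 50-base stretches came from GENCODE vM21. Promoter sequences are RefSeq's, of GRCm38.p6, which is not the build of the counts.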

Additional observations from a re-analysis of the deposited data

Results flagged for a closer look

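A library that stands apart was sought in 39 groups of 5 libraries (9 genes, the H2-L entry and 3 ratios in each genotype). Gaps and ranges were taken on log2 CPM or log2 ratios, not on the CPM printed here. In 3 groups the gap to the nearest library was above Dixon's critical share of the group's range, where chance gives about 1 in 20. Tap2 in WT 3 was low, at 46.7 CPM, with a gap of 0.767 of the range. Nlrc5 in cS5Alo 5 was low, at 152 CPM, with a gap of 0.734. Psmb10 in cS5Ahi 3 was high, at 149 CPM, with a gap of 0.807.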

How the results depend on the processing

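The number of class I genes called in cS5Ahi against WT, 0 of 9, became 1 with RLE factors, 1 with a filter of 1 CPM in 5 libraries, 1 without WT 3, WT 4 and cS5Ahi 4, and 2 with library size alone, upper quartile factors, DESeq2, or without WT 3 and WT 4; leaving out 1 library gave 0 to 2. In cS5Ahi against cS5Alo it became 1 with library size alone, DESeq2, the 2 groups alone, without WT 3 and WT 4 or without WT 1 and WT 2, and 2 with voom; leaving out 1 library gave 0 to 1. In every such case the called genes were Tap1, Tap2 or both, lower in cS5Ahi. In cS5Alo against WT no class I gene was called under any setting tried. Of the values of single genes under these settings 847 kept their side of the threshold (56 of these changed sign without a call) and 23 passed it, all of them Tap1 or Tap2; none was reversed. All 129 values of the subunit ratios kept their side, 14 with a change of sign. The cause of these differences was not tested.

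Over all genes, the 1692 calls of cS5Ahi against WT (824 higher, 868 lower) became 602 when tested against a fold of 1.5, 466 under the B cell covariate and 1081 without WT 3, WT 4 and cS5Ahi 4, and 1247 to 1905 without 1 library. The 1035 calls of cS5Ahi against cS5Alo became 2546 with voom, 262 in the fold test and 467 under the B cell covariate, and 769 to 1157 without 1 library. The 0 calls of cS5Alo against WT became 89 with DESeq2 and 0 to 4 without 1 library (1 without WT 1, 1 without WT 2 and 4 without cS5Alo 5). Library size alone split the calls of cS5Ahi against WT into 603 higher and 1177 lower and those against cS5Alo (583 and 452) into 484 and 571, and upper quartile factors the former into 681 and 1045.

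With the replicate number as a block, 1252, 0 and 727 genes and 0, 0 and 0 class I genes were called in the 3 comparisons (Tap1 against WT edgeR adjusted p = 0.151, Tap2 0.117); the block changed no call of a class I gene. Deviations of same-numbered libraries had correlations of -0.318 to 0.198, and 1 of 15 correlated best with its own number, so the numbers are not taken as pairs. Among the other genes named with a call against WT, Erap1, Lap3, Cd1d1, Ifngr1, Ifnar2 and Usp18 were not called when tested against a fold of 1.5. Psmb9 and Psmb10 are limited by the spread within genotypes: their intervals reach past a fold of 1.5 in 2 and 3 of the 3 comparisons.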
